A study of Mus musculus with 6 samples.

Results

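The genes that lie within 5 Mb of Angptl2 on mouse chromosome 2 were compared between Angptl2+/+ and Angptl2-/- brain at postnatal day 15. They were chosen by position and level alone. A gene was a member if its GENCODE M21 gene body overlapped chr2:28216069-38247717 (GRCm38) and if its mean over the 6 libraries was at least 0.5 FPKM, which is fragments per kilobase of exon, scaled to library depth. Angptl2 itself and genes whose symbols start with Nduf, Rpl, Rps, Mrp or Psm were left out. This gave 134 members among the 324 rows of the window and the 54532 rows of the whole table. Of the other rows, 1 is Angptl2, 5 were left out by their symbols, and 184 lie below the minimum level, of which 105 were listed at 0 in every library and 37 are olfactory receptor genes. The members comprise 123 protein-coding genes, 6 processed pseudogenes, 3 processed transcripts, 1 miRNA and 1 antisense gene. Toward lower coordinates lie 99 of them, toward higher coordinates 34, and Ralgps1 overlaps Angptl2. The member with the lowest mean was 1700001O22Rik (0.525 FPKM), and the row just below the minimum was Gbgt1 (0.497 FPKM).

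Angptl2 encodes angiopoietin-like 2, a secreted glycoprotein. Ralgps1 encodes a guanine nucleotide exchange factor that loads GTP onto the small GTPases RalA and RalB, which act through the exocyst in vesicle delivery and membrane traffic. When a gene is altered in embryonic stem cells or in a line kept apart from its controls, a stretch of the chromosome around it can differ between genotypes along with the gene. A neighbouring or overlapping gene can also lose or gain a regulatory element. The interval around a targeted gene is therefore commonly examined beside the gene.

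There were 3 Angptl2+/+ and 3 Angptl2-/- libraries of whole-cell brain RNA. The mice had a C57BL/6 background. The -/- animals descended from an Angptl2 fl/fl line in which loxP sites flank exon 2, recombined in the male germline by Stra8-Cre, a transgene active in spermatogenic cells, so the deletion is present in every tissue. The labels and methods do not say which brain regions were taken or whether each library came from a separate mouse, so the p-values measure the spread between these samples, which may be technical. In bulk tissue, fewer cells of a type and less RNA per cell cannot be told apart.

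The libraries held 17127276 to 18928921 fragments assigned to genes, recovered from the FPKM values. Markers of some cell types and regions differed between the genotypes. The summed FPKM of 6 choroid plexus markers was 1.69 to 7.77 in Angptl2+/+ and 104 to 936 in Angptl2-/-, that of 6 striatal markers 34.5 to 89.7 against 75.9 to 164.5, and that of 5 red blood cell markers 302 to 498 against 125 to 274. The sum of 6 oligodendrocyte markers was 831 to 1698 in Angptl2+/+ and 537 to 980 in Angptl2-/-, highest in Angptl2+/+ replicate 1, which also had the highest sum of 5 cerebellar markers (76.3 against 7.42 to 23.0 in the other 5 libraries). The sums of 5 astrocyte markers (313 to 434 against 261 to 301) and of 4 endothelial markers also did not overlap between the genotypes. Within both lists, however, the single markers were split. Of the astrocyte markers, 3 were lower and 2 higher in Angptl2-/- (median log2 fold change −0.015). Of the endothelial markers, 3 were lower and 1 higher (median −0.087). The part of these differences in the results was not tested, other than where values without that library are given.

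Angptl2 (ENSMUSG00000004105, chr2:33216069-33247717, plus strand) lies inside an intron of Ralgps1 (ENSMUSG00000038831, chr2:33133417-33371486, minus strand). Its gene body falls between exons 7 and 8 of the 17 exons of its first-numbered transcript, counted in the direction of transcription. None of those 17 exons lies within Angptl2, and the genes share no exon bases on either strand. Exon 2 of Angptl2 (chr2:33228175-33229032) makes up 858 of the 3339 bases of its first-numbered transcript and is intronic sequence of Ralgps1. The level of Angptl2 was low. It was 0.660, 0.958 and 0.290 FPKM in Angptl2+/+ replicates 1 to 3, from 74, 107 and 31 fragments, and 0.166, 0.320 and 0.126 FPKM in Angptl2-/- replicates 1 to 3, from 20, 34 and 13 fragments. The groups overlapped, since Angptl2+/+ replicate 3 lay below Angptl2-/- replicate 2 (two-sided exact permutation test over the 20 placements of the libraries, p = 0.2, with 0.1 the smallest this design allows). The values are of the whole gene, and the 4 other exons remain in the deleted allele.

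Ralgps1 was slightly higher in every Angptl2-/- library than in any Angptl2+/+ library. Its level was 10.3, 10.2 and 10.98 FPKM in Angptl2+/+ (10.5 ± 0.409, SD, n = 3) and 11.3, 11.4 and 11.9 FPKM in Angptl2-/- (11.5 ± 0.321, SD, n = 3). The groups do not overlap, but they are separated by less than the range within either. The log2 fold change was 0.13 (SE 0.093), or 1.10-fold, and did not pass the test (limma over all 14862 genes tested, unadjusted p = 0.196, adjusted p = 0.482). The exact permutation p was 0.1, the smallest possible with 3 against 3. Non-overlapping libraries are common in this comparison, as 22.5% of all genes tested had them in one direction or the other, and 10.7% were higher in every Angptl2-/- library. Across 19 ways of fitting the data the log2 fold change ranged from 0.05 to 0.16 and its sign did not change. Ralgps1 was the only member that overlaps Angptl2, and each library held 1391 to 1659 of its fragments.

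**Figure D1:**
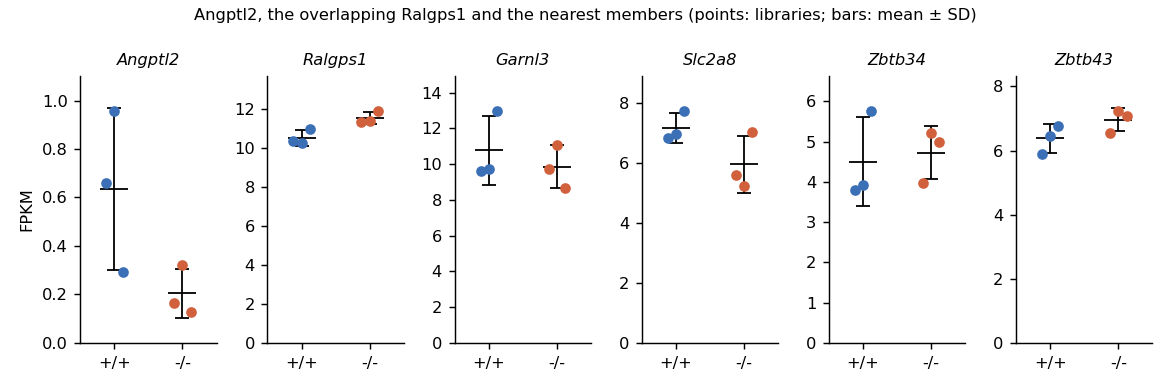
FPKM of Angptl2, Ralgps1 and 4 of their nearest members in the 3 Angptl2+/+ (blue) and 3 Angptl2-/- (orange) libraries, with mean and SD as bars; each panel has its own axis from 0. Only Ralgps1 has no overlap between the genotypes, and there the difference is 10.5 against 11.5 FPKM.

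The 250 bases before the RefSeq start of Ralgps1 (GRCm38.p6, chr2:33371495-33371744, minus strand) are printed as the member that the deletion lies within. Capitals mark matches on either strand to 3 promoter motifs, namely the GC box (GGGCGG or CCGCCC), the CCAAT box (CCAAT or ATTGG) and the TATA box (TATAAA or TTTATA), none of which overlaps another in this window. The window holds 2 GC boxes, 1 CCAAT box and 22 CpG dinucleotides, and its GC content is 69.6%. It lies upstream of Ralgps1 and outside the body of Angptl2.
Ralgps1: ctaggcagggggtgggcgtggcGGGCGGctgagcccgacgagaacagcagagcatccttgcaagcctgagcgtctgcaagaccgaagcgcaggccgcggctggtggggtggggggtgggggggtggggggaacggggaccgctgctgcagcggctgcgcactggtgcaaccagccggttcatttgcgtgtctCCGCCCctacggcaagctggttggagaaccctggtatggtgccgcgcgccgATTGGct

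Other genes of the Ral pathway, of which 16 passed the minimum level including Ralgps1 and Ralgds, did not pass the adjusted test in either direction (limma, 0 of 16 at adjusted p under 0.05, 5 at unadjusted p under 0.05). Those 5 are 31.25% of the list, against 16.2% of all genes tested, and the libraries of 8 did not overlap (50% against 22.5%). The log2 fold change was positive for 11 and negative for 5, with a median of 0.10. It decreased as the GC content of the longest transcript increased (Spearman's rho −0.88 over these 16 genes, −0.62 over all genes tested). These are descriptions across genes of the same libraries. With the GC correction described below, it was 0.12 for Ralgps1 and −0.08 for Ralgds. The part of GC content in the counts of this list was not tested. Ralgps2, the paralogue of Ralgps1 on chromosome 1, was 4.66, 5.33 and 4.73 FPKM in Angptl2+/+ and 5.91, 6.14 and 7.01 FPKM in Angptl2-/- (log2 fold change 0.36, unadjusted p = 0.0173, adjusted p = 0.274, limma). Rala, the GTPase itself, was 26.8, 29.2 and 29.1 FPKM against 32.9, 33.9 and 33.5 FPKM (log2 fold change 0.23, adjusted p = 0.284, limma). Neither pair of groups overlaps. The 4 exchange factors of the Ralgds family were split, with Ralgds, Rgl2 and Rgl3 lower in every Angptl2-/- library at an unadjusted p under 0.05 and Rgl1 at a log2 fold change of 0.10. Ralgds, itself a member 4.66 Mb from Angptl2, was 19.8, 20.7 and 20.7 FPKM in Angptl2+/+ and 18.6, 15.9 and 14.2 FPKM in Angptl2-/-, without overlap (log2 fold change −0.34, adjusted p = 0.278, limma). Rgl2 was 4.65 ± 0.439 against 3.57 ± 0.596 FPKM (SD, n = 3 each). RalB, encoded by Ralb, had almost equal means of 3.69 and 3.68 FPKM.

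The members nearest to Angptl2 differed little. Within 0.5 Mb lie 15 members, counting Ralgps1, and none reached an unadjusted p under 0.05, against 16.2% of all genes tested. Of these 15, 10 were on the negative side of 0 and 5 on the positive side, the median log2 fold change was −0.12, and only the libraries of Ralgps1 did not overlap. Garnl3, a Rap GTPase-activating domain protein gene 0.084 Mb away and the nearest beside Ralgps1, was 9.59, 9.72 and 13.0 FPKM in Angptl2+/+ and 9.74, 11.1 and 8.69 FPKM in Angptl2-/-. On the other side, the zinc finger genes Zbtb34 and Zbtb43 had log2 fold changes of 0.08 and 0.12. Sh2d3c, which encodes a signalling adaptor, had a log2 fold change of −0.43 (SE 0.22) and Cfap157, a cilium gene, one of 0.36 (SE 0.33), and in each the groups overlapped. Slc2a8, which encodes a glucose transporter, was −0.27, Fam129b −0.25 and the ESCRT-I subunit gene Mvb12b −0.21. The ubiquitin ligase gene Lrsam1 was −0.15 and the torsin gene Tor2a −0.08. Among low genes, 6330409D20Rik was −0.30 and Gm13523 −0.10.

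From 0.5 to 1 Mb the members leaned one way. Of 22 members, 20 had a negative log2 fold change, 10 were lower in every Angptl2-/- library, and 4 reached an unadjusted p under 0.05, all lower (1110008P14Rik, Fam102a, St6galnac6 and Ak1). Over all genes tested, 11.8% were lower without overlap, and 9.12% were lower at that p. The median was −0.25. Of these 22 members, 21 lie at lower coordinates than Angptl2, and the median GC content of the 22 was 55.7%. Over all genes tested between 55 and 60% GC, the median log2 fold change was −0.26. With the GC correction described below, only 1110008P14Rik of the 4 kept an unadjusted p under 0.05. The part of GC content in this lean was not tested. Beyond that, no steady change with distance was seen. The median log2 fold change was −0.12 for 22 members at 1 to 2 Mb, −0.23 for 31 at 2 to 3 Mb, −0.14 for 23 at 3 to 4 Mb and 0.04 for 21 at 4 to 5 Mb. The size of the difference, regardless of sign, had a median of 0.25 within 1 Mb (37 members) and 0.22 from 1 to 5 Mb (97 members). Across the 134 members, which are genes of the same libraries and not replicates, Spearman's rho between distance and the absolute log2 fold change was −0.10. The log2 fold changes of adjacent members correlated weakly (Pearson's r = 0.11 over 133 pairs), and those of adjacent genes over all chromosomes did so about as weakly (r = 0.17 over 14794 pairs).

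**Figure D2:**
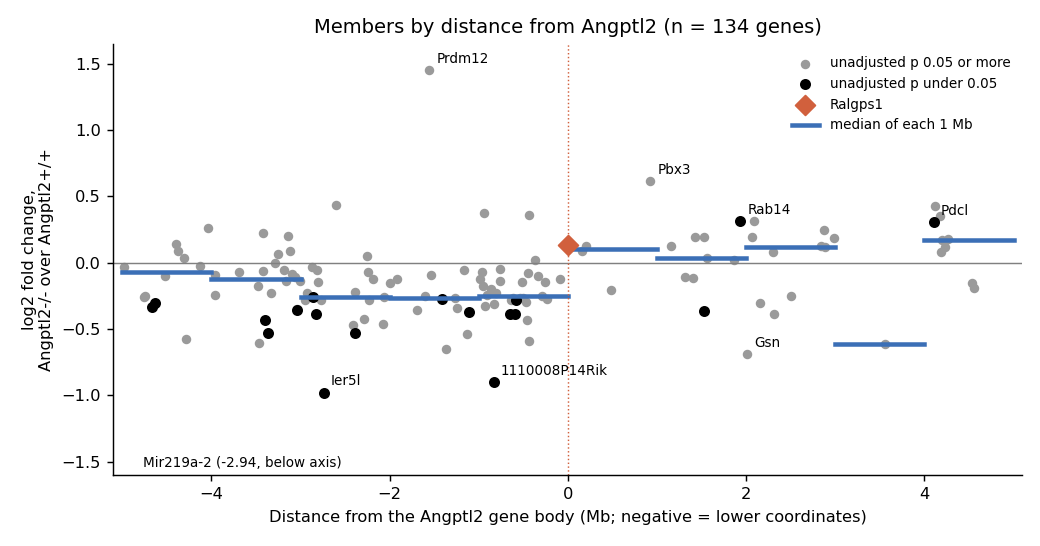
Log2 fold change of each of the 134 members (vertical axis, Angptl2-/- over Angptl2+/+) against its distance in Mb from the Angptl2 gene body, with negative distances toward lower coordinates. Black points have an unadjusted p under 0.05, blue lines are medians of each 1 Mb (1 gene at 3 to 4 Mb on the right), and the diamond is Ralgps1; most points on the left lie below 0 and most on the right above it.

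Over the whole window no member passed the adjusted test (limma, smallest adjusted p = 0.273), and neither did any of the 14862 genes tested (0%). At an unadjusted p under 0.05 there were 18 members, or 13.4%, against 16.2% of all genes tested. Of these 18, 16 were lower and 2 higher in Angptl2-/-, where the background was 9.12% lower and 7.09% higher. Libraries did not overlap in 32 members, 26 lower and 6 higher, against backgrounds of 11.8% and 10.7%. Without Angptl2-/- replicate 1, 28 members (20.9%) had an unadjusted p under 0.05, beside 20.4% of all genes tested. Without Angptl2-/- replicate 2, 11 members (8.21%) did, beside 8.55% of all genes tested.

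The direction differed between the sides of Angptl2. Of the 99 members at lower coordinates, 84 were on the negative side of 0, with a median log2 fold change of −0.23, and 15 were lower and none higher at an unadjusted p under 0.05 (voom on recovered fragments gave 13 and 0). Of the 34 at higher coordinates, 23 were on the positive side of 0, with a median of 0.12, and 2 were higher (Rab14 and Pdcl) and 1 lower (Rabepk). Over all genes tested, 49.4% had a positive log2 fold change and the median was −0.0043. In each library, the median member at lower coordinates stood at −0.03, 0.02 and −0.02 in Angptl2+/+ replicates 1 to 3 relative to the Angptl2+/+ mean on the log2 scale, and at −0.08, −0.23 and −0.22 in Angptl2-/- replicates 1 to 3. At higher coordinates the medians were −0.06, −0.04 and 0.04 in Angptl2+/+ and 0.03, 0.10 and 0.11 in Angptl2-/-. The groups do not overlap on the left and overlap on the right, and Angptl2-/- replicate 1 was the closest to Angptl2+/+ on both sides. The left median was −0.14 without Angptl2-/- replicate 3, and the right median was 0.04 without Angptl2+/+ replicate 1 and 0.07 without Angptl2-/- replicate 2.

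**Figure D3:**
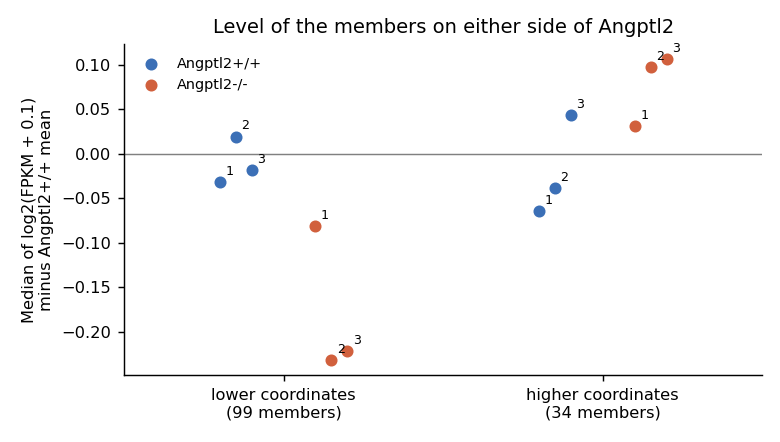
Median over the members on each side of Angptl2 of log2(FPKM + 0.1) minus the Angptl2+/+ mean, for each library, with replicate numbers beside the points. On the left all 3 Angptl2-/- points lie below all 3 Angptl2+/+ points, and on the right Angptl2-/- replicate 1 lies below Angptl2+/+ replicate 3.

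The sides also differ in base composition, which the choice of members did not use. The GC content of the longest transcript had a median of 55.2% on the left, 47.3% on the right and 49.7% over all genes tested. Over all genes tested, the log2 fold change decreased as the GC content increased (Spearman's rho −0.62 over 14845 genes, a description across genes of the same libraries), and over the members rho was −0.54. Within classes of GC content, members had values near those of all genes. Between 55 and 60% GC, 46 of 49 members and 2322 of 2652 genes had a negative log2 fold change, with medians of −0.25 and −0.26. Below 45% GC, 11 of 14 members and 3269 of 3821 genes had a positive one, with medians of 0.18 and 0.24. Between 45 and 50% GC, a class with 13 members on each side, the left median was −0.12 and the right median 0.12, beside 0.07 for all genes. When each library was corrected for GC content by a loess curve, the left median became −0.04 (44 positive, 55 negative), the right median 0.05 (18 positive, 16 negative) and the median of all members −0.02. The median of all genes tested was then −0.01. After that correction 9 members had an unadjusted p under 0.05, or 6.72% against 6.998% of all genes tested, and 5 of them were among the 18 above (1110008P14Rik, Ier5l, Urm1, Asb6 and Rabepk).

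**Figure D4:**
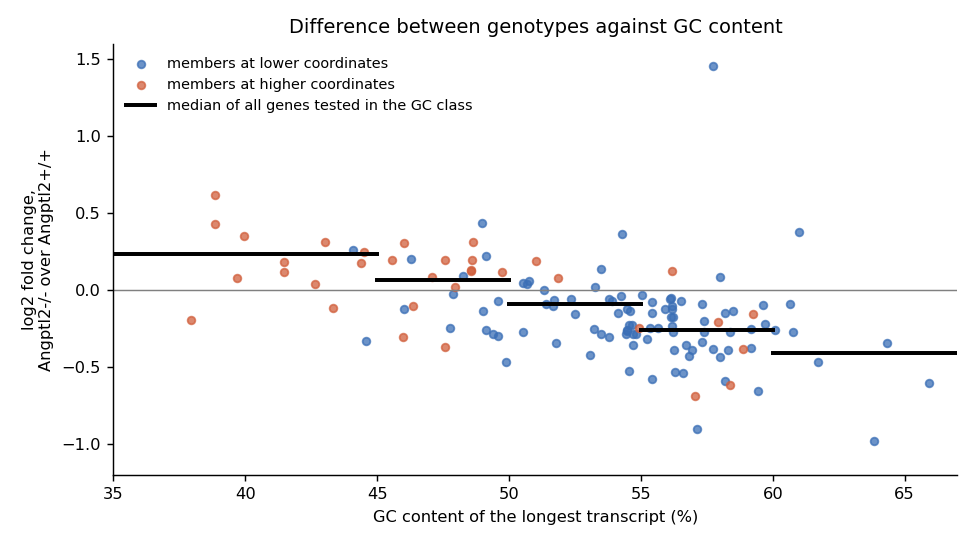
Log2 fold change (vertical axis, Angptl2-/- over Angptl2+/+) against the GC content of the longest transcript (percent) for members at lower (blue) and higher (orange) coordinates; Mir219a-2 lies below the axis. Black lines are medians of all genes tested in 5 classes of GC content and step down from 0.24 to −0.41, with the members around them.

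The member with the smallest p was 1110008P14Rik (ENSMUSG00000039195, chr2:32377097-32381938, minus strand), 0.834 Mb from Angptl2. It was 44.4, 36.7 and 47.3 FPKM in Angptl2+/+ and 24.7, 23.7 and 20.1 FPKM in Angptl2-/-. The groups were far apart relative to their spread (log2 fold change −0.90, SE 0.14, unadjusted p = 0.000235, adjusted p = 0.273, limma). The log2 fold change lay between −1.01 and −0.66 in all 19 fits, −0.66 being the GC-corrected value, and the unadjusted p was under 0.05 in each of them. It shares 728 exon bases with Ciz1 on the opposite strand, and since the strand setting of the counting is not given, fragments of both genes may be mixed there. Ciz1, which encodes a zinc finger protein that interacts with a cell cycle inhibitor, had a log2 fold change of −0.31.

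Ier5l, a relative of the immediate early gene Ier5, was 8.96, 10.7 and 10.2 FPKM in Angptl2+/+ and 6.71, 4.57 and 4.004 FPKM in Angptl2-/-, the Angptl2-/- libraries all being lower (log2 fold change −0.98, SE 0.19, adjusted p = 0.273, limma). It is 2.74 Mb from Angptl2, its transcript is 63.8% GC, and its GC-corrected log2 fold change was −0.54. Urm1, which encodes a ubiquitin-like sulphur carrier used in tRNA thiolation, was 7.85, 8.31 and 7.04 FPKM against 5.76, 5.49 and 4.77 FPKM (log2 fold change −0.53, GC-corrected −0.38). Asb6, a substrate adaptor of a ubiquitin ligase, was 5.43, 6.12 and 5.34 FPKM against 4.56, 3.96 and 3.16 FPKM (log2 fold change −0.53, GC-corrected −0.32). In these genes no Angptl2-/- library reached the level of any Angptl2+/+ library. Ier5l, Urm1 and Asb6 lie between 2.39 and 3.37 Mb from Angptl2, well outside the nearest 1 Mb.

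The other members among the 8 with the smallest p on the lower side had smaller values. Slc27a4, the fatty acid transport protein gene, had a log2 fold change of −0.43, Miga2, which acts in mitochondrial fusion, −0.39, Fam102a −0.39 and Plpp7, a phospholipid phosphatase family gene, −0.37. None of their genotypes overlapped. With the GC correction these 4 became −0.19, −0.11, −0.15 and −0.07, and none kept an unadjusted p under 0.05.

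**Figure D5:**
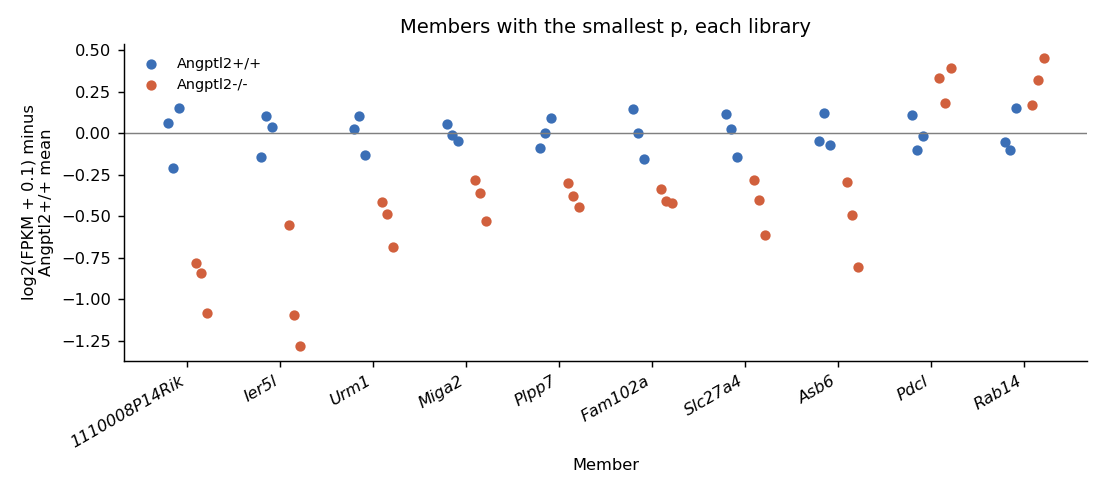
Log2(FPKM + 0.1) minus the Angptl2+/+ mean in each of the 6 libraries, for the 8 lower members with the smallest p and the 2 higher members with an unadjusted p under 0.05. Angptl2-/- libraries (orange) lie below all Angptl2+/+ libraries (blue) in the first 8 genes and above them in Pdcl and Rab14.

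Rab14, a small GTPase that acts between endosomes and the Golgi, was the most abundant member on the higher side with an unadjusted p under 0.05. It was 17.0, 16.4 and 19.6 FPKM in Angptl2+/+ and 19.8, 21.99 and 24.1 FPKM in Angptl2-/-, with no overlap but nearly equal values in Angptl2+/+ replicate 3 and Angptl2-/- replicate 1 (log2 fold change 0.31, SE 0.12, adjusted p = 0.284, limma). Pdcl, a phosducin-like co-chaperone for the assembly of G protein subunits, was 6.30, 5.43 and 5.76 FPKM against 7.35, 6.63 and 7.68 FPKM (log2 fold change 0.30, SE 0.11, adjusted p = 0.283, limma). With the GC correction they were 0.10 and 0.17, with unadjusted p-values of 0.268 and 0.143. Set, which encodes a histone chaperone and phosphatase inhibitor (log2 fold change 0.20), and Gapvd1, an exchange factor for Rab5 (0.19), were higher in every Angptl2-/- library without reaching an unadjusted p of 0.05. Pbx3, a homeodomain gene (0.62), the roquin family gene Rc3h2 (0.43) and Zbtb6 (0.35) had positive values and overlapping groups. Pbx3 ranged from 2.37 to 4.11 FPKM in Angptl2+/+ and from 2.96 to 6.80 FPKM in Angptl2-/-.

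The promoter windows of 4 members with the smallest p in their direction are printed, with the same motifs in capitals and the same build. Each holds the 250 bases before the RefSeq start, which lies 0 to 23 bases from the GENCODE start. The positions are chr2:32381916-32382165 for 1110008P14Rik, chr2:30474200-30474449 for Ier5l, chr2:35201121-35201370 for Rab14 and chr2:37359333-37359582 for Pdcl, all on the minus strand.
1110008P14Rik: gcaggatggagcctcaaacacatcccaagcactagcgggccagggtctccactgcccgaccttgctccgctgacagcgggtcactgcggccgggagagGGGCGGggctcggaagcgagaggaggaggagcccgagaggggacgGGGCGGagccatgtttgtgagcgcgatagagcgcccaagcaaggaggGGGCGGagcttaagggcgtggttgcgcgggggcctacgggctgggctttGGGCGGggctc
Ier5l: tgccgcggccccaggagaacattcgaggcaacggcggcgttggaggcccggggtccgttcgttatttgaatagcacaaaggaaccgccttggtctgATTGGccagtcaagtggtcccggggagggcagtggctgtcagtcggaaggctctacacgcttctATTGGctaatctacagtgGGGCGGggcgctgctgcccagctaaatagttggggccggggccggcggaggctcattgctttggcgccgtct
Rab14: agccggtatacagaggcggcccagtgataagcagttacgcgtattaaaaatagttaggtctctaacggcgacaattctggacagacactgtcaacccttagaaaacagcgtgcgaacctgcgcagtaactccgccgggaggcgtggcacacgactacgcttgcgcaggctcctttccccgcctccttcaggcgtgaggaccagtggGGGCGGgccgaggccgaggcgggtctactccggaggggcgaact
Pdcl: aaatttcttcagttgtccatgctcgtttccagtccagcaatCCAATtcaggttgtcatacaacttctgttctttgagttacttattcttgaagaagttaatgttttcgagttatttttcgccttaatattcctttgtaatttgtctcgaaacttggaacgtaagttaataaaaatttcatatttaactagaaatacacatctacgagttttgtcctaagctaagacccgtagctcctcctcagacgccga

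The window of 1110008P14Rik holds 4 GC boxes at 69.6% GC, that of Ier5l holds 1 GC box and 2 CCAAT boxes at 62.4% GC, that of Rab14 holds 1 GC box at 60% GC, and that of Pdcl holds 1 CCAAT box and no GC box at 35.6% GC. A promoter sequence was matched for 116 members. A GC box was present in 58.6% of them, against 32.7% of the 32851 promoters in the table, and a CCAAT box in 37.9% against 33.8%. A TATA box was present in 2.59% against 12.4%, in 0 of 88 members on the left and 3 of 27 on the right. The sets are unlike, since the 32851 promoters include several for some genes and were not filtered by level, as the members were. Among the first promoters of 27025 genes, also not filtered, the shares were 32.9% (GC box), 34.5% (CCAAT box) and 13.0% (TATA box). The shares over the genes tested were not taken. The GC box did not separate the sides (56.8% on the left, 63.0% on the right), and the median GC content of the windows was 61.2% and 58.0%. A match shows only that these letters are present.

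By role, members that act in the endoplasmic reticulum, in lipid metabolism or in glycan synthesis had a median log2 fold change of −0.23, with 14 of 16 negative and 3 at an unadjusted p under 0.05, all lower (Plpp7, Slc27a4 and the sialyltransferase gene St6galnac6). Signalling members, mostly regulators of small GTPases and kinases, had a median of −0.22, with 17 of 22 negative, 3 lower (Rabepk, Ralgds and the tyrosine kinase gene Abl1) and 1 higher (Rab14). Rabepk, which encodes an effector of Rab9, was 5.11, 4.80 and 4.51 FPKM in Angptl2+/+ and 4.07, 3.56 and 3.49 FPKM in Angptl2-/-, lower in each library, although it lies on the right and its transcript is 47.6% GC. Its GC-corrected log2 fold change was −0.45, beside −0.37 before. Metabolic members had a median of −0.14, with 9 of 13 negative, 2 lower (Miga2 and Ak1) and 1 higher (Pdcl, which the list counts here). The adenylate kinase gene Ak1 was 46.3 ± 3.62 against 38.0 ± 1.75 FPKM (SD, n = 3 each). Nuclear and RNA members were evenly split, 17 positive and 17 negative, with a median of 0.01, and the 5 with an unadjusted p under 0.05 were all lower (Ier5l, Urm1, Asb6, the TFIIIC subunit gene Gtf3c5 and Spout1). Members of the cytoskeleton and vesicle traffic had a median of −0.13, with 13 of 18 negative and 1 lower (Sh3glb2, an endophilin B gene). The role lists leave out 26 members, and Olfm1, also on the surface and matrix list, was counted with the endoplasmic reticulum members. The 5 members counted as cell surface or matrix proteins were all negative, none at an unadjusted p under 0.05. With the GC correction they did not share a direction (Ntng2 0.26, Crb2 0.16, Lamc3 0.01, Eng −0.02 and Fibcd1 −0.34). Among them, Eng, the endothelial co-receptor endoglin, was 10.7 ± 2.44 against 8.71 ± 0.580 FPKM (SD, n = 3 each). The summed FPKM of 4 endothelial markers was also lower in Angptl2-/- (37.9 to 46.5 against 52.4 to 59.2), although 1 of the 4 was higher. The part of that sum in the value of Eng was not tested. The medians stand beside −0.0043 over all genes tested, and the counts at an unadjusted p under 0.05 beside 16.2% of all genes tested, near which lay 18.8% of the endoplasmic reticulum, lipid and glycan members, 18.2% of the signalling members and 14.7% of the nuclear and RNA members. Median GC content was 54.6% for the endoplasmic reticulum, lipid and glycan members, 51.7% for signalling and 50.6% for nuclear and RNA members. It was 49.7% over all genes tested. Of the genes named here at an unadjusted p under 0.05, only Ier5l, Urm1, Asb6 and Rabepk kept it with the GC correction. The part of GC content in the role medians was not tested.

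Abundant members included genes of synapses and the neuronal membrane skeleton. Dnm1, the dynamin of synaptic vesicle endocytosis, was 274, 279 and 340 FPKM in Angptl2+/+ and 241, 268 and 266 FPKM in Angptl2-/- (log2 fold change −0.20). Its libraries did not overlap, by a margin smaller than the range within either genotype. Olfm1, a secreted olfactomedin of neurons, was 265 ± 57.4 against 256 ± 26.3 FPKM, and Sptan1, the alpha-II spectrin gene, 107 ± 7.84 against 103 ± 7.59 FPKM (SD, n = 3 each). Hspa5, the chaperone BiP of the endoplasmic reticulum, was 81.3, 81.3 and 53.7 FPKM against 90.3, 90.2 and 65.2 FPKM, so replicate 3 was the lowest in each genotype and the groups overlapped. The translation-related gene Prrc2b (log2 fold change −0.12) and the phosphatase activator gene Ptpa (−0.28) also overlapped.

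Some members with large fold changes rested on few libraries. Gsn, the actin-severing protein gelsolin, which is expressed in oligodendrocytes, was 49.96, 31.8 and 21.8 FPKM in Angptl2+/+ and 16.8, 19.2 and 25.7 FPKM in Angptl2-/- (log2 fold change −0.69, unadjusted p = 0.055, limma). Its value was highest in Angptl2+/+ replicate 1, the library with the highest oligodendrocyte sum, and without that library the log2 fold change was −0.38. Fnbp1, a membrane-bending adaptor gene, was −0.47 with all libraries and −0.23 without Angptl2+/+ replicate 1. Fibcd1, which encodes an acetyl-group-binding surface receptor, was 9.88 FPKM in that library and 2.69 to 5.31 FPKM in the others. Prdm12, a transcription regulator of sensory neurons, had the highest log2 fold change of the members (1.46, SE 1.13), with 0.0454, 2.32 and 0.0477 FPKM in Angptl2+/+ and 2.19, 0.551 and 0.618 FPKM in Angptl2-/-, so both genotypes varied widely.

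The lowest fitted log2 fold change belonged to Mir219a-2, the hairpin gene of a miRNA that promotes oligodendrocyte maturation (chr2:29845631-29845727, minus strand). It rested on 6 and 2 fragments in Angptl2+/+ replicates 1 and 2, or 3.47 and 1.16 FPKM, and it was listed at 0 in the other 4 libraries. Mature miRNAs are not read by this kind of library, and the fragments cover a 97-base row that shares 65 bases with Mir219b on the opposite strand. No fold is given, since a count of 0 allows up to 3 fragments. The mature sequence in RefSeq (GRCm38.p6, chr2:29845689-29845709, minus strand) is printed with the seed, bases 2 to 8, in capitals, as the only miRNA among the members.
mmu-miR-219a-5p: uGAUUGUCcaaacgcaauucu

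The lean toward lower values was not limited to the 5 Mb window. From 5 to 10 Mb lie 99 tested genes, of which 71 had a negative log2 fold change, with a median of −0.17, and their median transcript GC content was 54.5%, beside 54.5% for the members. On the left lie 86 of them (63 negative, median −0.19, median GC content 54.9%). The 13 on the right had 8 negative values and a median of −0.05 at 47.7% GC, beside 0.12 for the members on the right. Over all 1065 tested genes of chromosome 2 outside the 5 Mb window, which include those 99, the median was 0.02 at a median GC content of 49.4%. At the edges, Olfm1 and Dennd1a were the outermost members (log2 fold changes −0.03 and −0.19), and Col5a1 and Lhx2 the nearest tested genes outside (−0.64 and −0.55).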

How the data were processed

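RNA-seq of brain at postnatal day 15 covered 3 Angptl2+/+ and 3 Angptl2-/- libraries. For each library and gene the authors deposited an FPKM value made from paired-end Illumina reads. Per the submitters' processing notes, Bowtie 0.12.2 and the mm8 assembly were used. How fragments were counted, filtered and assigned by strand, and with which annotation, is not given in the sources used here. GENCODE M21 (GRCm38) held 54495 of the 54532 gene identifiers, and FPKM times its summed exon length gave whole fragments, to within 0.05, for 96.6 to 96.8% of values above 0. Symbols and coordinates are those of that annotation. The fragments set counting error only.

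The main test was limma 3.58.1 in its moderated, trended and two-sided form (R 4.3.3), applied to log2(FPKM + 0.1) of the 14862 genes with a mean of at least 0.5 FPKM. Benjamini-Hochberg adjustment covered all of these genes. Fold changes are Angptl2-/- over Angptl2+/+ on this scale and understate changes of low genes. The code was tested on simulated data. Distance is from the nearest edge of the Angptl2 gene body. No library was a copy of another (chi-square per degree of freedom 16.6 to 64.6 between pairs). Tables and figures used Python 3.11.15, pandas 2.3.3, numpy 2.4.6 and matplotlib 3.10.9.

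The members, gene lists and marker lists were chosen with earlier results of these data known. The genes named are Angptl2, Ralgps1, members within 0.5 Mb, the 8 members with the smallest p in each direction, the 5 most abundant, 2 per role by p and 1 by level, 3 genes of the Ral pathway by p, and the genes at the edges of the choice, of which some are not reported here. Other members at an unadjusted p under 0.05, and Mir219a-2, Prdm12, Fnbp1, Ciz1 and Ralb, were named after their values were seen. Promoter and miRNA sequences are from RefSeq. Alternatives were other pseudocounts, filters, scalings and windows, GC and length corrections, voom on recovered fragments, a replicate block, and leaving out each library. The medians by side were added after the data were seen.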

Additional observations from a re-analysis of the deposited data

How the results depend on the processing

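The median log2 fold change of the members was −0.15. With the GC correction it was −0.0166, beside −0.0106 over all genes tested, with medians of −0.0407 on the left and 0.0507 on the right. In that fit 9 members (6.72%) had an unadjusted p under 0.05, beside 6.998% of all genes tested. Libraries did not overlap in 19 members, and in 13.0% of all genes tested. With the replicate block and the GC correction together, the medians were again −0.0166, −0.0407 and 0.0507, and 19 members were again without overlap. There 12 members (8.96%) had an unadjusted p under 0.05, beside 8.06% of all genes tested. The length correction gave a right median of 0.0367. A window of 2.5 Mb gave a median of −0.21, with 9 and 20 members, and one of 10 Mb gave 38 and 58. With a mean FPKM of at least 1, the difference in median absolute log2 fold change between members within 1 Mb and those from 1 to 5 Mb was 0.058, beside 0.028.

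Leaving out each library in turn gave 11 to 28 members at an unadjusted p under 0.05, 36 to 66 without overlap (66 without Angptl2+/+ replicate 3 and 65 without Angptl2-/- replicate 1), a left median of −0.24 to −0.14, a right median of 0.0375 to 0.12, a difference by distance of −0.0051 to 0.045 and a Ralgps1 log2 fold change of 0.11 to 0.16. Of all genes tested, 8.55% and 20.4% had that p in the fits that gave 11 and 28 members. Libraries did not overlap in 43.0% and 41.4% of all genes in the fits that gave 66 and 65 members, and in 28.1% in the fit that gave 36. Fewer libraries make an absence of overlap more common by construction. No alternative gave a member an adjusted p under 0.05, the lowest being 0.168. Apart from the negative difference by distance above, found without Angptl2-/- replicate 1, these results kept their sign under all alternatives. With the GC correction, however, the median of the members (−0.0166) was close to that of all genes tested (−0.0106).

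The replicate numbers did not pair the samples. Correlations of same-numbered deviations were 0.04, −0.07 and 0.16, and the labels name no shared origin. With the replicate block, 21 members (15.7%) had an unadjusted p under 0.05, beside 17.9% of all genes tested. The Ralgps1 log2 fold change stayed at 0.13 in that fit (unadjusted p = 0.247, limma). Depth limits the low members most, and at 3 samples a genotype an exact test of 1 gene cannot go below 0.1.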
